A study of Mus musculus with 20 samples.

Results

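Notch1, Notch2, Rbpj, Maml1, Maml2, Maml3, Hes1 and Dtx1 form the set described here: 2 receptor genes, the gene for the DNA-binding protein of the pathway, the 3 Mastermind coactivator genes and 2 target genes, 8 of the 56239 genes in the deposited count table. They were matched by symbol to a single mouse Ensembl gene each, and each had at least 10 counts in all 20 libraries. The cells were B3, a mouse pre-B cell line transduced with a retrovirus that carries Ikaros-ERt2, a fusion of the lymphoid transcription factor Ikaros (IKZF1) to a hormone-binding domain. Addition of 500 nM 4-hydroxytamoxifen (4-OHT) moves the fusion into the nucleus. RNA bound to chromatin was sequenced in untreated cells (0 h, labelled as treatment none) and after 30 min, 1, 2, 6, 12, 15, 18, 21 and 24 h of 4-OHT, with 2 libraries per time point. All groups carried the same construct and no group received 4-OHT without it or vehicle alone, so that IKZF1 induction, 4-OHT and hours in culture cannot be told apart. The 0 h labels do not say whether the 2 untreated libraries came from separate cultures, and p-values measure the spread between these libraries, which may be technical. All libraries come from this 1 cell line.

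Notch receptors sit in the plasma membrane and are cut by ADAM proteases and then by gamma-secretase when a Delta or Jagged ligand on a neighbouring cell binds. The freed intracellular domain enters the nucleus, joins RBPJ on DNA and recruits a Mastermind coactivator, and the complex switches on genes such as Hes1 and Dtx1. Without it RBPJ is held by corepressors. In lymphocytes, Notch1 drives the T cell fate, Notch2 the marginal zone B cell fate, and IKZF1 is known to repress Notch target genes in developing T cells.

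The cells had most of the markers of a pre-B line. Of 10 pre-B genes, 7 had a median of at least 1 CPM (counts scaled to library size with TMM factors), among them Pax5, Ebf1, Cd79a and Cd79b. The sum of the 10 lay between 8201 and 16485 CPM per library, most of it Ebf1 (5863 to 14593 CPM) and Pax5 (1073 to 3993 CPM). The surrogate light chain genes were low for most of the time course. Igll1 had a median of 2.03 CPM (0.896 to 170.1) and Vpreb1, which did not pass, one of 0.818 CPM (0.237 to 18.3). Rag1 and Rag2 were listed at 0 in all libraries. Their overlap with other genes was not checked, so this is not read as a lack of transcription. Most protein-coding genes wholly inside another gene were listed at 0, as given below for Maml1. Of 10 T cell genes, 3 (Cd5, Lck and Cd28) passed 1 CPM while Cd3e and Trbc2 were at 0 in 18 and 19 libraries, and the sum lay between 41.3 and 113 CPM, most of it Cd28. Of 8 myeloid genes none passed, with a sum of 0.950 to 2.29 CPM. Library totals ran from 33296158 to 46868954 counts with a median of 40943260. Replicates of a time point differed by 1.26 to 1.77 times the sampling noise (chi-square per degree of freedom) at 6 of the 10 time points, by 2.58 at 24 h, 4.78 at 21 h, 9.95 at 12 h and 14.9 at 18 h. Counts listed for Ikzf1 itself, which do not separate the construct from the cell's own gene, were 4845 and 4838 CPM at 0 h and 9227 and 8380.2 CPM at 24 h, below the 2-fold threshold used here (log2 fold change 0.86 ± 0.04 SE).

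The starts of these genes are shown for the letters that IKZF1 is known to prefer, TGGGAA and its GGAA core, since the expression values below are read after IKZF1 entry. TGGGAA is also a core of RBPJ sites, so a match does not tell these 2 factors apart. RefSeq windows of 300 bases (250 before to 50 after a start, GRCm38.p6) were found for 7 members, 9 windows in all. TGGGAA was searched on both strands and is in capitals, written as TTCCCA where it lies on the other strand. The windows of Rbpj and Maml3 hold it, as does the second of the 2 Maml2 windows, while those of Notch1 and Dtx1 and the first Maml2 window do not. Sequences read 5′ to 3′ on the strand of the gene.
Rbpj, chr5:53590096-53590395, plus strand: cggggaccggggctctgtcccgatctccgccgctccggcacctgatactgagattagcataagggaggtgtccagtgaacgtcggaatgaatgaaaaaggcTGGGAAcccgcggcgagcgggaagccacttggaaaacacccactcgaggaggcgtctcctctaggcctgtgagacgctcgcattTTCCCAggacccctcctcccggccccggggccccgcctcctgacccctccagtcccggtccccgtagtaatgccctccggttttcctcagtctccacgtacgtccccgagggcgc
Maml3, chr3:52104957-52105256, minus strand: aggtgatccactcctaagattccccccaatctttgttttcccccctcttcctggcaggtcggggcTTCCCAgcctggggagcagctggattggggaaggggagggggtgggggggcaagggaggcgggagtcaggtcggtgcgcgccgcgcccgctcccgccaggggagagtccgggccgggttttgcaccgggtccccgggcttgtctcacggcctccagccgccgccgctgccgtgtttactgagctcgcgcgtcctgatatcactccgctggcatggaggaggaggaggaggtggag
Maml2, chr9:13662210-13662509, plus strand: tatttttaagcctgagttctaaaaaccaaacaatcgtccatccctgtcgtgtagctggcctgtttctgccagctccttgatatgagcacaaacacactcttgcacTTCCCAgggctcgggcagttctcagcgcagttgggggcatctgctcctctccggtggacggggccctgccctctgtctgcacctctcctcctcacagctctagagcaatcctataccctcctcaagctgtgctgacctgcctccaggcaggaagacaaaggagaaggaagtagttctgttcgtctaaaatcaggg
Maml2, chr9:13297708-13298007, plus strand: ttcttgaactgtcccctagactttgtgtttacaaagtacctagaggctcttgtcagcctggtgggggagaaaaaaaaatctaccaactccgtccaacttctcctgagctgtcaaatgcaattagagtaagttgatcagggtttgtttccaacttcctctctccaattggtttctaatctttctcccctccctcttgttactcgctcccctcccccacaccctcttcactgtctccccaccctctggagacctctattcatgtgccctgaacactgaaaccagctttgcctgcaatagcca
Notch1, chr2:26503773-26504072, minus strand: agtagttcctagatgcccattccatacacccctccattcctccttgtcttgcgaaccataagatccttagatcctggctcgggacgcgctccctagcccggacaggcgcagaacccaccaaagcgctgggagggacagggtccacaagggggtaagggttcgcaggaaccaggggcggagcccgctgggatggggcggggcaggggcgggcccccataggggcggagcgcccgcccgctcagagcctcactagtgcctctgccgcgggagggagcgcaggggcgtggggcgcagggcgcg
Dtx1, chr5:120711620-120711919, minus strand: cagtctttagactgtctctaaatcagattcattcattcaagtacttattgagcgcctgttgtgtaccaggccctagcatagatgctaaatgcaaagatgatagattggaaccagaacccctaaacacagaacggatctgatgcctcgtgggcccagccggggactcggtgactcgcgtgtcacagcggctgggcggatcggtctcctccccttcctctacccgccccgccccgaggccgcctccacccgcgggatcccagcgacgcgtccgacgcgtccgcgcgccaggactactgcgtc

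The Rbpj window holds TGGGAA at 2 places, whose first bases lie at -149 and -65 from the start, and a second, overlapping Rbpj window holds one of them again. The single match lies at -185 for Maml3 and at -145 for the second Maml2 start, which is inside the gene body. Both Rbpj windows and that of Notch1 also lie inside the annotated bodies, away from their 5′ ends. The Rbpj body begins at 53466152 on the plus strand, and its windows begin at 53590096 and 53590236. The Notch1 body, on the minus strand, begins at 26516663, and its window ends at 26504072. The Dtx1 window lies inside its body too, but near the 5′ end. That body, on the minus strand, begins at 120711927, and the window ends at 120711919. In all, 4 of the 9 member windows, from 3 genes and with 2 overlapping Rbpj windows among them, hold the letters, where 25.6% of all 32851 windows hold them and 3.79% hold 2 or more. The longer GTGGGAA was in 0 member windows and in 6.38% of all windows. Occurrences of the 4-letter words GGAA and GGGA, both strands, overlaps counted, numbered 16 and 12 in the 2 Rbpj windows, 16 in that of Maml3, 9 and 5 in the 2 Maml2 windows, 11 for Notch1, 10 for Maml1, 6 for Notch2 and 6 for Dtx1, with a median of 7 over all windows. The first Rbpj window and that of Maml3 had more of them than 98.1% of windows, and the second Rbpj window more than 88.1%. A match is a description of these letters and not a bound site.

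Across the 8 genes, the first to pass the thresholds given next did so at 1 h, and the times that passed differed by gene. A gene was called changed where edgeR's quasi-likelihood test gave a Benjamini-Hochberg adjusted p under 0.01 over all 16601 genes tested and a fold above 2. At 30 min 0 members were called with edgeR or with DESeq2 (background 0.464% of genes tested, 77 genes), and 4 had an unadjusted edgeR p under 0.05. At 1 h 1 member was called, Dtx1 (background 7.16%). At 2 h 3 were called (background 13.2%), 1 down and 2 up, where 6.91% of genes fell and 6.25% rose. The count was 4 at 6 h (background 20.1%), 4 at 12 h (23.1%), 4 at 15 h (28.4%), 3 at 18 h (36.6%) and 4 at 21 h (39.5%). At 24 h 5 members were called (background 40.1%), 2 down among 20.1% of genes that fell and 3 up among 20% (3323 genes) that rose. Between 6 h and 24 h 2 were called (background 23.7%). Over the whole time course 7 of 8 passed at some time (background 51.9%), all but Notch2. From 18 h on the share of members called, 3 to 5 of 8, was not far from that of all genes, and nothing is read from it. The median absolute log2 change of the 8 was 1.16 at 6 h against 0.48 over all genes tested, 0.64 against 0.78 at 18 h, 1.35 against 0.86 at 24 h, and 0.55 against 0.55 from 6 h to 24 h.

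**Figure D1:**
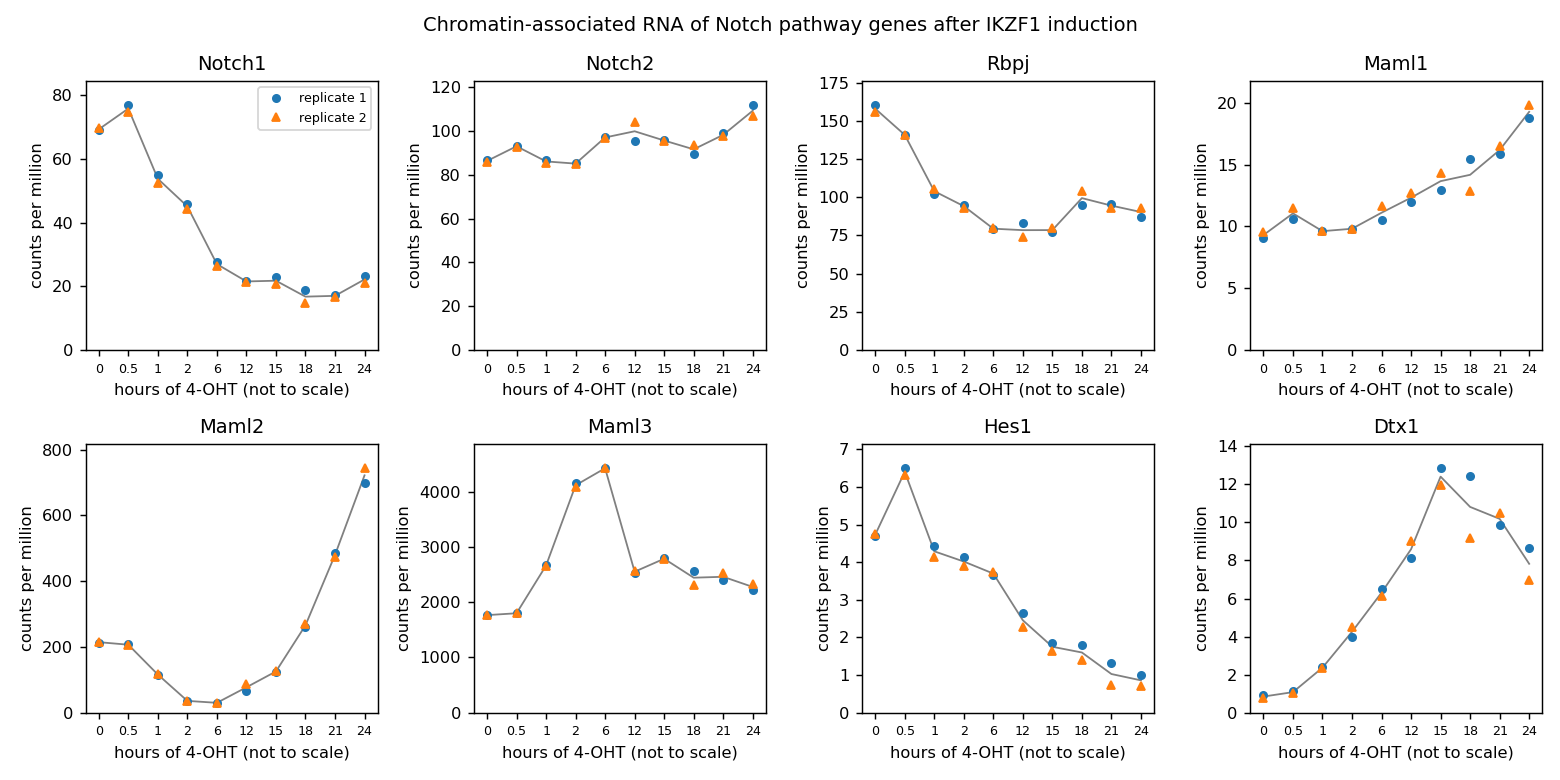
CPM of each of the 8 genes (vertical axis from 0, scaled per gene) against hours of 4-OHT (time points evenly spaced), with both replicates as points and a line through their mean. Notch1, Rbpj and Hes1 end below their 0 h libraries, Dtx1 and Maml1 end above them, Maml2 dips to 30.4 and 29.6 CPM at 6 h before its 24 h peak, and Maml3 peaks at 6 h.

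Among the receptors, Notch1 fell and Notch2 stayed within a 1.27-fold change. Notch1, at chr2:26457903-26516663 on the minus strand, stood at 68.9 and 69.6 CPM at 0 h, 76.7 and 74.8 after 30 min, 55.0 and 52.4 after 1 h, 45.9 and 44.2 after 2 h and 27.5 and 26.3 after 6 h. It then read 21.5 and 21.5 after 12 h, 22.9 and 20.6 after 15 h, 18.8 and 14.7 after 18 h, 17.2 and 16.8 after 21 h and 23.1 and 21.1 after 24 h. Every library from 1 h on lay below both untreated ones. In these bulk samples fewer cells with the RNA and less RNA per cell cannot be told apart. The fall at 1 h was small (log2 fold change -0.37 ± 0.07 SE, adjusted p 0.00011). Notch1 was called at 6 h (-1.36 ± 0.07, adjusted p 3e-13) and at every later time, with its lowest value at 18 h (-2.04 ± 0.08, 4.12-fold, adjusted p 2.75e-16). The order of time points by level had 3 neighbouring pairs whose libraries overlapped, 24 and 15 h, 15 and 12 h, and 21 and 18 h. The 3′ end of Notch1 is overlapped by the antisense gene 0610009E02Rik, which had counts of its own equal to 14.7% of those of Notch1.

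Notch2, at chr3:98013527-98150361 on the plus strand, gave 86.8 and 86.0 CPM at 0 h, 93.4 and 92.8 after 30 min, 86.7 and 85.7 after 1 h, 85.4 and 84.9 after 2 h and 97.3 and 96.9 after 6 h. Later values were 95.5 and 104 after 12 h, 96.2 and 95.3 after 15 h, 89.6 and 93.8 after 18 h, 99.0 and 97.6 after 21 h and 112 and 107 after 24 h. All libraries from 6 h on lay above both at 0 h. The rise at 24 h was 1.27-fold (log2 fold change 0.34 ± 0.04 SE, adjusted p 2.11e-07), past the p threshold and under the fold threshold, and at 18 h the log2 fold change was 0.09 with an adjusted p of 0.0684. With scaling by library totals alone the change at 18 h and 21 h was negative (-0.04 and -0.05).

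Notch4, a further receptor gene outside the set of 8, rose over the same hours. Its levels were 1.06 and 1.103 CPM at 0 h, 3.62 and 3.34 after 6 h, 8.91 and 9.15 after 15 h and 17.3 and 15.8 after 24 h, a log2 fold change of 3.93 ± 0.15 SE (adjusted p 2.25e-16). Notch3 was below the count filter. Per kb of gene body outside other annotated genes, Notch1 stood at 1.21 ± 0.008 CPM (SD, n = 2) at 0 h, Notch2 at 0.672 ± 0.005 and Notch4 at 0.0454 ± 0.001. At 24 h Notch2 came first with 0.850 ± 0.026, then Notch4 with 0.696 ± 0.043 and Notch1 with 0.387 ± 0.025. Notch1 was above Notch2 up to 2 h and below it from 6 h. The 15 h and 18 h levels of Notch1 and Notch4 per kb did not differ beyond their spread (0.380 ± 0.029 and 0.379 ± 0.007 at 15 h). These levels are of RNA on chromatin, introns included, and not of protein.

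**Figure D2:**
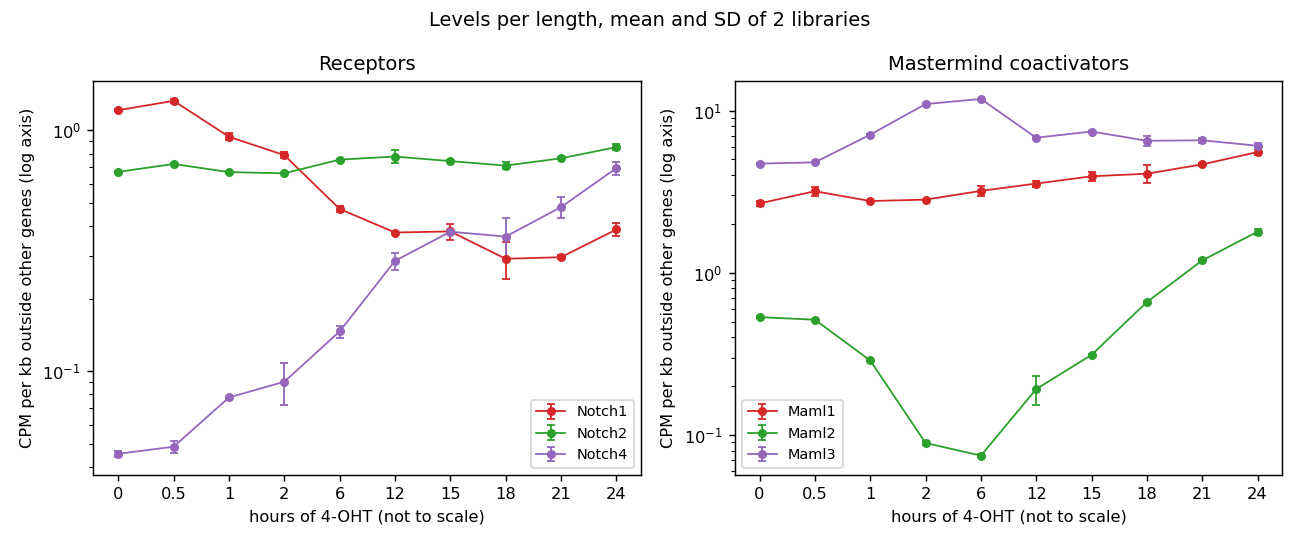
CPM per kb of gene body outside other genes (log axis) against hours of 4-OHT for receptors (left) and Mastermind genes (right), mean and SD of 2 libraries. Notch1 and Notch2 exchange order between 2 h and 6 h, Notch4 climbs from 0.0454 to 0.696, and Maml2 falls to 0.0745 and then rises to 1.79. Maml1 is over the 3.47 kb at its 5′ end, which holds only if reads in the antisense overlap were left out.

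Rbpj, the gene for the factor that carries the Notch complex to DNA, fell early, was lowest from 6 h to 15 h and read higher from 18 h, still below 0 h. It lies at chr5:53466152-53657362 on the plus strand. It read 160.1 and 156 CPM at 0 h, 141 and 141 after 30 min, 102 and 106 after 1 h, 95.2 and 93.2 after 2 h and 79.1 and 79.8 after 6 h. Then came 83.3 and 73.7 after 12 h, 77.2 and 79.9 after 15 h, 95.1 and 104 after 18 h, 95.9 and 93.1 after 21 h and 87.4 and 93.3 after 24 h. Every induced library lay below both untreated ones, from 30 min on. The log2 fold change was -0.17 ± 0.05 SE at 30 min (adjusted p 0.0278), -0.60 ± 0.05 at 1 h (adjusted p 1.81e-09) and -0.99 ± 0.05 at 6 h (adjusted p 2.51e-13), just short of 2-fold. Rbpj was called only at 12 h (-1.01 ± 0.05, adjusted p 1.71e-13) and 15 h (-1.01 ± 0.05, adjusted p 1.15e-13), again at the 2-fold line. Without the first untreated library neither was called (-0.996 and -0.994), nor was 12 h without its second library (-0.92) or 15 h without its first (-0.98), and 6 h was called without the second untreated library (-1.01). The fall of about 2-fold therefore had no certain side of the threshold, while its direction held in each of these fits. From 6 h to 24 h Rbpj rose by 0.19 ± 0.05 on the log2 scale (adjusted p 0.00347), under the fold threshold. With scaling by library totals alone that change was negative (-0.078). Of 9 neighbouring pairs in the order of its time points, 6 overlapped, and the levels at 0 h and 30 min each stood apart from all later ones. The 2 annotated Rbpj pseudogenes, which could share exonic reads with it, were listed at 0.

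The 3 Mastermind genes, whose proteins bind the Notch and RBPJ surface and recruit histone acetyltransferases, each took a different course. Maml3, at chr3:51685907-52105076 on the minus strand, rose within 1 h and peaked at 6 h. Its values were 1771 and 1762 CPM at 0 h, 1801 and 1799 after 30 min, 2679 and 2649 after 1 h, 4152 and 4082 after 2 h and 4424 and 4427 after 6 h. By 12 h they were 2533 and 2572, then 2793 and 2781 after 15 h, 2574 and 2314 after 18 h, 2396 and 2524 after 21 h and 2219 and 2334 after 24 h. All libraries after 0 h were above both untreated ones, and those at 2 h and 6 h above all others. Maml3 was called at 2 h (log2 fold change 1.22 ± 0.04 SE, adjusted p 1.55e-16) and 6 h (1.33 ± 0.04, 2.51-fold, adjusted p 2.47e-17) and was 1.29-fold above 0 h at 24 h (adjusted p 2.1e-08). From 6 h to 24 h it fell by 0.96 ± 0.04 on the log2 scale (adjusted p 3e-15), under the fold threshold.

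Maml2, at chr9:13297957-13709388 on the plus strand, went the other way and then turned. It stood at 213 and 216 CPM at 0 h, 207 and 206 after 30 min, 115 and 117 after 1 h, 35.4 and 36.5 after 2 h and 30.4 and 29.6 after 6 h. After that it read 66.4 and 88.1 after 12 h, 125 and 126 after 15 h, 262 and 269.6 after 18 h, 485 and 474 after 21 h and 700.3 and 744 after 24 h. No neighbouring time points overlapped in the order of its levels, the single member for which all 9 pairs were apart. The log2 fold change was -0.89 ± 0.07 SE at 1 h (adjusted p 6.91e-10), -2.58 ± 0.08 at 2 h (adjusted p 3.72e-17) and -2.84 ± 0.08 at 6 h (7.15-fold, adjusted p 5.72e-18). At 18 h it was 0.31 ± 0.07 (adjusted p 0.000318) and at 24 h 1.75 ± 0.07 (3.36-fold, adjusted p 6.64e-16). From 6 h to 24 h Maml2 rose 24.1-fold (log2 fold change 4.59 ± 0.08, adjusted p 3.86e-21). The call at 21 h (1.16) was lost when libraries were scaled by their totals alone (0.93). The replicates at 12 h, 66.4 and 88.1 CPM, were the least alike of this gene, at one of the time points where all genes differed most between replicates.

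Maml1, at chr11:50255634-50292311 on the minus strand, rose slowly. It gave 9.07 and 9.53 CPM at 0 h, 10.6 and 11.5 after 30 min, 9.60 and 9.63 after 1 h, 9.81 and 9.81 after 2 h and 10.5 and 11.7 after 6 h. It went on to 12.0 and 12.7 after 12 h, 13.0 and 14.3 after 15 h, 15.5 and 12.9 after 18 h, 15.9 and 16.5 after 21 h and 18.8 and 19.8 after 24 h. All libraries after 0 h lay above both untreated ones. Only 24 h was called (log2 fold change 1.05 ± 0.08 SE, 2.07-fold, adjusted p 1.66e-10), and this call was lost with scaling by library totals (0.79). Of the Maml1 body 90.5% is covered by the antisense gene Gm26542, which had counts equal to 17.1% of those of Maml1. In this table protein-coding genes that lie wholly inside another gene were listed at 0 in all libraries in 93.9% of 462 cases on the same strand and in 92.6% of 840 on the opposite strand, against 17.1% of all 21899 protein-coding genes. Counts of Maml1 thus stand for the small share of its body outside the antisense gene, if reads in shared sequence were left out on either strand as these shares read.

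Per kb outside other genes, Maml3 stood at 4.71 ± 0.016 CPM (SD, n = 2) at 0 h against 0.533 ± 0.005 for Maml2, and at 11.8 ± 0.004 against 0.0745 ± 0.001 at 6 h. At 24 h the values were 6.07 ± 0.216 and 1.79 ± 0.077. Maml1 read 2.68 ± 0.092 at 0 h and 5.55 ± 0.209 at 24 h, over the 3.47 kb at its 5′ end outside the antisense gene. These 2 values hold only if reads in the overlap were left out, so the order of Maml1 and Maml2 is uncertain. Maml3 was the higher of the 3 at every time point. Across the 20 libraries the log2 CPM of Maml2 and Maml3 had a Pearson r of -0.745, a description over libraries that share the time course.

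**Figure D3:**
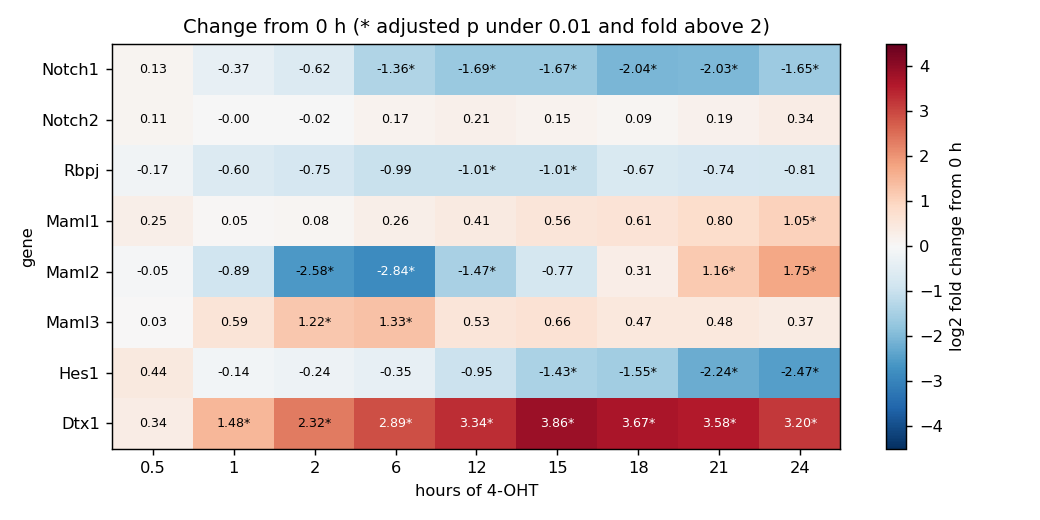
Log2 fold change from 0 h (color, with the value written in each cell) for the 8 genes in rows at each time of 4-OHT in columns; an asterisk marks adjusted p under 0.01 and fold above 2. Maml2 goes from -2.84 at 6 h to 1.75 at 24 h, Dtx1 is called at all times from 1 h, and Notch2 has no asterisk.

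The 2 target genes moved in opposite directions. Hes1, a basic helix-loop-helix repressor and a classical Notch target, lies at chr16:30064384-30067796 on the plus strand. It read 4.71 and 4.75 CPM at 0 h, 6.50 and 6.31 after 30 min, 4.43 and 4.15 after 1 h, 4.15 and 3.89 after 2 h and 3.67 and 3.73 after 6 h. It continued at 2.65 and 2.27 after 12 h, 1.85 and 1.65 after 15 h, 1.81 and 1.40 after 18 h, 1.32 and 0.733 after 21 h and 1.01 and 0.706 after 24 h. Both 30 min libraries lay above every other library, and all from 1 h on lay below both untreated ones. The 30 min value (log2 fold change 0.44 ± 0.12 SE, adjusted p 0.0127) missed the threshold. Hes1 was called from 15 h (-1.43 ± 0.15, adjusted p 1.69e-08) to 24 h (-2.47 ± 0.18, 5.53-fold, adjusted p 3.75e-11), and from 6 h to 24 h it fell by 2.11 ± 0.19 on the log2 scale (adjusted p 1.92e-09). The lowest 24 h library held 26 counts of Hes1.

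Dtx1, the Deltex1 ubiquitin ligase that is both a target and a modulator of Notch, lies at chr5:120680202-120711927 on the minus strand. It stood at 0.929 and 0.766 CPM at 0 h, 1.14 and 1.03 after 30 min, 2.40 and 2.33 after 1 h, 3.99 and 4.51 after 2 h and 6.49 and 6.12 after 6 h. It reached 8.14 and 9.05 after 12 h, 12.9 and 12.0 after 15 h, 12.4 and 9.20 after 18 h, 9.87 and 10.5 after 21 h and 8.68 and 6.97 after 24 h. Every induced library was above both untreated ones. Dtx1 was the earliest member called, at 1 h (log2 fold change 1.48 ± 0.22 SE, adjusted p 1.15e-05), and stayed called to 24 h (3.20 ± 0.18, adjusted p 5.87e-13) with its highest value at 15 h (3.86 ± 0.17, 14.6-fold, adjusted p 7.66e-15). The lower 0 h library held 34 counts of Dtx1. The libraries of 15 and 18 h, 18 and 21 h, and 12 and 24 h overlapped.

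The 2 receptor genes and the targets did not follow one course over the libraries. The log2 CPM of Notch1 had a Pearson r of 0.873 with Hes1 and of -0.954 with Dtx1, descriptions over 20 libraries that share time and culture. Among 12056 genes with a mean of at least 1 CPM, the closest in course to Notch1 were Zmiz1 (Pearson r 0.992 on log2 of CPM plus 0.5, 20 libraries) and Pip4k2b (0.990). Closest to Notch2 were Snx33 (0.876) and Rin3 (0.875), the lowest best match of the 8. Rbpj was nearest to Caprin1 (0.967) and Acbd6 (0.963), Hes1 to Eif2b1 (0.986) and Tlcd1 (0.985), and Dtx1 to Colca2 (0.989) and Cyth1 (0.987). Maml1 was nearest to Ifit2 (0.972) and S100pbp (0.972), Maml2 to Firre (0.960) and Slc22a5 (0.959), and Maml3 to AC125184.1 (0.952) and Ahi1 (0.944).

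Of 72 other Notch pathway genes listed, 60 passed the count filter and 33 of them were called at some time, 13 with their largest change down and 20 up, near the 51.9% of all genes tested. At 30 min 2 of the 60 were called, Dtx4 and Myc, both down, where 0.41% of all genes tested fell and 0.0542% rose. At 1 h 7 were called, all down (background 4.84% down and 2.33% up), and at 2 h 6, all down (background 6.91% down and 6.25% up). By 24 h 9 were down and 19 up (background 20.1% down and 20% up). Whether these splits differ from those of all genes was not tested.

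Ligands, the Delta and Jagged genes, had 4 of 7 tested and 3 called at some time (background 51.9% of genes tested). Dll3 fell to -3.49 at 21 h (log2 fold change, adjusted p 2.27e-09), Jag1 fell to -1.63 at 6 h (adjusted p 4.15e-05) and Dll4 rose to 1.76 at 21 h (adjusted p 3.37e-05). All 3 were low, under 2 CPM in each library. Jag2 did not pass against 0 h (log2 fold change -0.84 at 6 h and 0.78 at 24 h) and rose by 1.61 from 6 h to 24 h (adjusted p 1.73e-09). Of 10 genes for receptor cleavage, all tested, 3 were called (background 51.9%), each with its largest change up. These were Aph1b (4.09 at 24 h, adjusted p 2.37e-19), Aph1c (2.18, adjusted p 1.03e-12) and Psen2 (1.31, adjusted p 4.45e-13), parts of gamma-secretase. Aph1c was first called down, at 1 h (-1.09, adjusted p 9.96e-05). Aph1b went from 1.51 and 1.64 CPM at 0 h to 26.8 and 26.9 after 24 h. Aph1b and Aph1c are near-identical neighbours, so reads can be shared between them and their separate values are uncertain. Of 5 glycosylation genes, whose enzymes modify the receptor's extracellular part, Poglut1 rose (2.17 at 18 h, adjusted p 7.95e-12) while the Fringe genes Lfng (-2.07 at 2 h, adjusted p 7.92e-11) and Rfng (-1.17 at 18 h, adjusted p 7.46e-07) fell. Lfng was back at -0.08 at 24 h.

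Among 13 tested genes for endocytosis and ubiquitin ligases 7 were called at some time, near the background of 51.9% of genes tested. Dtx4, a Deltex relative of Dtx1, had the opposite course, from 27.2 and 27.6 CPM at 0 h to 11.8 and 10.7 after 30 min and 4.26 and 4.08 after 1 h (log2 fold change -1.29 ± 0.07 SE at 30 min, adjusted p 9.1e-12, and -2.71 ± 0.08 at 1 h, adjusted p 3.41e-17). It was still at -2.16 at 24 h. Mib2, a ligase for ligand uptake, fell by 1.53 on the log2 scale at 12 h (adjusted p 4.1e-12) and Neurl1b rose by 1.47 (adjusted p 1.05e-09). At 24 h Mib2 was at -0.58 and Neurl1b at 0.16, neither of them called. Of 7 nuclear coactivators 1 was called (background 51.9%), the acetyltransferase gene Kat2a, which fell to -2.41 at 24 h (adjusted p 1.19e-15). Ep300 and Crebbp, the partners of Mastermind, rose but stayed under the fold threshold (these 2 are named after their values were seen). Ep300 reached 0.96 at 21 h (1.94-fold, adjusted p 1.85e-16), close to the 2-fold line, and Crebbp 0.62 at 24 h (adjusted p 3.61e-14). Of 11 tested corepressor genes 6 were called, also near the background of 51.9%. Cir1 rose to 1.76 at 24 h (adjusted p 1.29e-19) and Bend6 to 2.65 at 18 h (adjusted p 1.05e-10).

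All 9 tested genes of the list of other targets were called at some time (background 51.9% of genes tested), 6 up and 3 down. Heyl among those up and Hes5 among those down were near the floor of counts. Il2ra, the alpha chain of the interleukin-2 receptor, rose from 1.94 and 2.12 CPM at 0 h to 42.2 and 39.0 after 24 h (log2 fold change 4.32 ± 0.08 SE, adjusted p 3.86e-21). Myc fell from 63.6 and 62.2 CPM to 30.6 and 29.6 after 30 min (-1.06 ± 0.09, adjusted p 3.11e-08) and to 5.55 and 4.40 after 24 h (-3.67 ± 0.12, adjusted p 1.54e-17). Ccnd3, a G1 cyclin gene, rose by 2.12 at 24 h (adjusted p 5.64e-15). Of the Hes and Hey family, Hes5 was below 0.4 CPM in every library and Heyl had 0 counts in all 8 libraries up to 2 h and 19 and 12 after 24 h, 2 genes also named after their values were seen. Heyl passed the count filter only through libraries after 2 h, so nothing is read from its call up. Hes5 was so low throughout that nothing is read from its call down either. Hey1, Hey2, Nrarp and Ptcra were below the filter, the last 2 with 99.1% and 100% of their bodies inside other genes. The genes listed as targets did not share 1 direction, as Hes1 and Dtx1 did not.

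**Figure D4:**
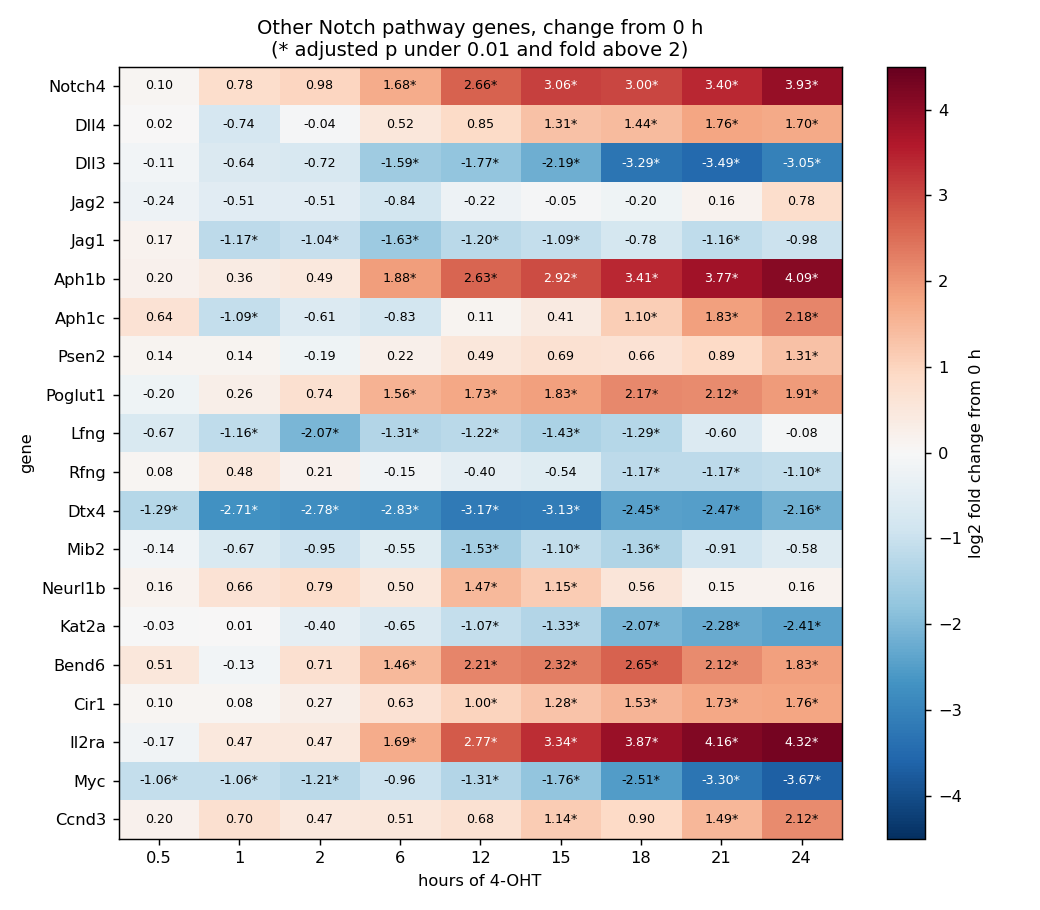
Log2 fold change from 0 h (color and written value) of 20 other Notch pathway genes, up to 3 of each role list with a mean of at least 1 CPM plus Notch4 and the ligands, against hours of 4-OHT; an asterisk marks adjusted p under 0.01 and fold above 2. Dtx4 and Myc carry an asterisk at 0.5 h, and no gene shown is called up before 6 h.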

How the data were processed

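Chromatin-associated RNA was sequenced as 75 bp paired-end reads. The authors aligned reads to GRCm38 with STAR and deposited raw counts per gene, introns included, made with featureCounts (the submitters' processing notes also name CASAVA 2.17). The annotation release, strand setting and handling of reads shared by genes are not given in the sources used here. All 20 columns of the table were used, and 55154 of 56239 identifiers matched a symbol in GENCODE M21 (GRCm38). A gene was kept if 2 or more libraries held 10 or more counts of it. Counts were scaled with TMM factors and fitted with edgeR 4.0.16 (R 4.3.3) by the quasi-likelihood test, with time as a factor over all libraries. SE is the absolute log2 fold change divided by the square root of F. The fit was tested on simulated data. Alternatives were other scalings and filters, DESeq2 1.42.0, a replicate block, fits to the compared libraries alone, and leaving out each library.

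All 8 genes are described. From the other lists, the receptors and ligands that passed the filter are named, and up to 3 called genes per list averaging at least 1 CPM, those with the largest absolute log2 fold change, together with Ikzf1 and the 2 genes most correlated with each member. The values of 1 gene that this rule names are not reported here. The members, lists and thresholds were chosen with earlier results of these data known. Counts limit precision only for Hes1 and Dtx1, the members with fewer than 50 counts in a library.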

Additional observations from a re-analysis of the deposited data

How the results depend on the processing

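Of 80 log2 fold changes (8 genes, 9 times against 0 h and 24 h against 6 h), all 80 kept their direction and call with at least 10 counts in every library and with a replicate block, and 79 did with each of DESeq2, DESeq2 size factors, no filter on low counts and fits to the compared libraries alone. The exception was Rbpj at 6 h (-0.99), called there at -1.01, -1.01, -1.02 and -1.01. Scaling by library totals alone moved the median log2 fold change of all genes at 24 h from -0.01 to -0.27 and the calls from 3329 down and 3323 up to 4260 down and 2603 up. Under it Notch2 reversed to -0.0404 at 18 h, -0.047 at 21 h and -0.093 from 6 h to 24 h, Rbpj reversed to -0.078 from 6 h to 24 h, Maml1 at 24 h (0.79) and Maml2 at 21 h (0.93) lost their calls, and Rbpj at 24 h (-1.06) and Maml3 from 6 h to 24 h (-1.22) gained one. The cause was not tested beyond the shift. Leaving out each library in turn, Notch2 at 1 h ranged from -0.012 to 0.00497, Hes1 at 12 h gained a call (-1.06) without the first 12 h library, and calls per time point ranged from 3 to 5 at 12 h, 3 to 4 at 15 h 4 to 5 at 6 h and 6 to 7 over the time course. Without the fold threshold the members called were 5 at 1 h (36.3% of all genes tested), 5 at 2 h (47.7%), 8 at 12 h (60.7%), 8 at 15 h (65.7%), 7 at 18 h (71.3%), 8 at 21 h (71.6%), 8 at 24 h (71.5%) and 7 from 6 h to 24 h (59.5%), and 60 of 60 other pathway genes over the time course (88.0%). With GTGGGAA in place of TGGGAA, 0 members in place of 3 held the motif. Replicate numbers did not pair the libraries: deviations of same-numbered libraries, over 7876 genes and 45 pairs of time points, correlated at a mean r of 0.030 (-0.678 to 0.477). With the replicate block 7 members were changed over the time course, as without it, and 33 other pathway genes. Depth limits Hes1 and Dtx1, with at least 26 and 34 counts per library.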

Other observations

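The markers of the line itself moved over the same hours. Of 8 pre-B genes tested, 7 were called at 24 h, 5 up and 2 down, with a median log2 fold change of 1.23. Among all genes tested 40.1% were called at 24 h, 20.1% down and 20% up. Whether the pre-B genes differ from these shares was not tested. Igll1, part of the surrogate light chain of the pre-B receptor, ranged from 0.896 to 170.1 CPM over the 20 libraries, and Cd79b, a signalling chain of that receptor, from 15.0 to 78.5 CPM. Their part in the course of the Notch pathway genes was not tested.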
